A study of Mus musculus with 6 samples.

Results

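Type I interferon response genes are the genes that cells switch on after interferon alpha or beta binds its receptor, and 42 of them, chosen by gene symbol, were followed in blood stem and progenitor cells of mice given a PIM kinase inhibitor. All 42 had a row among the 15845 genes of the deposited count table, all 42 held at least 10 reads in total over the libraries, and all 42 passed the filter on low counts that left 13149 genes for testing. The cells were LSK cells of the bone marrow, which lack mature lineage markers and carry Sca1 and c-Kit. The treated mice received TP-3654, which the title of the series calls a Pim1 inhibitor, for 6 weeks at 150 mg/kg/day, and the controls received PBS as vehicle over the same time, with 3 libraries in each group. Mice of both groups were C57BL/6 and carried Jak2VF/VF, the homozygous V617F allele of a myeloproliferative neoplasm model, together with Mx1Cre, a recombinase under the promoter of the interferon-inducible gene Mx1. The age of the mice, any inducing treatment for the recombinase and any pooling of animals are not given by the labels. Libraries of a group are biological replicates per the design text, and p-values reflect their spread.

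Interferon alpha and beta act through the receptor chains encoded by Ifnar1 and Ifnar2. The receptor-bound kinases JAK1 and TYK2 then switch on a transcription factor complex that holds STAT2 and IRF9 and binds the interferon-stimulated response element (ISRE) in the promoters of target genes. The induced proteins sense foreign RNA and DNA, degrade or trap viral RNA, or brake the response. In mouse bone marrow interferon alpha is known to push resting stem cells into the cell cycle, and interferon alpha preparations are used as a treatment of JAK2-mutant neoplasms.

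The ISRE core GAAANNGAAA, searched on both strands from 250 bases before to 50 bases after each RefSeq start site (GRCm38.p6), was held by 17 of the 29 members with a promoter in the RefSeq table. Of all 27025 genes with such a promoter, 3.99% held it, as did 3.44% of the single windows. Copies may overlap, and a match describes letters only. The core of the STAT dimer site TTCNNNGAA, searched in the same way and able to overlap the first motif, was held by 6 of the 29 members and by 9.55% of all genes. The other 13 members, Ly6e, Usp18, Mx1, Mx2, Oas2, Ifi27, Ifi27l2a, Rtp4, Dhx58, Zbp1, Parp9, Parp14 and Ifi204, were not matched to a promoter. The stretches below are those of the members with the smallest p-values that had a promoter, of Trim30a as the neighbour of Trim30d, and of 3 classical targets. Each runs 5′ to 3′ on the strand of the gene from 120 bases before the start site, with the ISRE core or its reverse complement in capitals. They are chr4:40239814-40239945 (minus strand), chr17:78882545-78882692 (minus), chr7:104507850-104507969 (minus), chr7:104465194-104465313 (minus), chr4:156200819-156200938 (minus), chr19:34640769-34640888 (plus) and chr5:120907526-120907645 (minus).
Ddx58: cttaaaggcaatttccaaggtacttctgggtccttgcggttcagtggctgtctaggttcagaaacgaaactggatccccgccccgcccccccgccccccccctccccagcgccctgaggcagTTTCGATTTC
Eif2ak2: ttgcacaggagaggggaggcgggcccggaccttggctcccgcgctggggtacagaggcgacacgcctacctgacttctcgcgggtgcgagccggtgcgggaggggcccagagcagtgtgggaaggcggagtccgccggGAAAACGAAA
Trim30d: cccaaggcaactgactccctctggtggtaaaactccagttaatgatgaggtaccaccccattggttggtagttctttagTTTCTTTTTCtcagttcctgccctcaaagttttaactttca
Trim30a: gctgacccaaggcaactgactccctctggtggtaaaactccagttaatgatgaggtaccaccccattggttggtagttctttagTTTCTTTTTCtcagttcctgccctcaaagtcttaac
Isg15: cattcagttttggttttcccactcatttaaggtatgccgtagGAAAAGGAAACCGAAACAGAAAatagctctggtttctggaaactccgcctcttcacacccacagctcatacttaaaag
Ifit1: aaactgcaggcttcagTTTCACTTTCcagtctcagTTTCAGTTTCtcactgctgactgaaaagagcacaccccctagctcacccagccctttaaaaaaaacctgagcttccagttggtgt
Oas1a: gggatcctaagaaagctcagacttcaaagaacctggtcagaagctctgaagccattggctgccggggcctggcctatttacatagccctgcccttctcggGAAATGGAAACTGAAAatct

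In Isg15, 3 overlapping copies formed 1 run of capitals, and in Oas1a 2 copies overlapped. Ifit1 held 2 separate copies, starting 104 and 85 bases before the start site. The copies of Ddx58 and Eif2ak2 lay just after the start site, at bases 3 and 19 of the transcript. The Trim30d and Trim30a stretches matched at 114 of 115 aligned bases when shifted by 5 bases, so these neighbouring genes have almost the same promoter there.

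No interferon response gene changed by the test over all genes. edgeR called 0 of the 42 members at an adjusted p under 0.05 (quasi-likelihood test, Benjamini-Hochberg over all 13149 tested genes) and also 0 of all genes, or 0%. At an unadjusted p under 0.05 there were 4 members, 3 of them higher and 1 lower with TP-3654, against 17.1% of all tested genes, 10.2% higher and 6.84% lower. DESeq2 called 2 members, Ddx58 higher and Ly6e lower, against 5.02% of all genes, and limma-voom called 0. At an unadjusted p under 0.05 DESeq2 also had 4 members, against 18.3% of all genes. The 3 TP-3654 libraries lay above all vehicle libraries at 3 members and below them at 1, against 14.3% and 11.6% of all tested genes, or 25.9% in all. Without TP-3654 replicate 3 edgeR called 0 members and 0.232% of all genes, and 3 members, against 12.5% of all genes, had an unadjusted p under 0.05. Called shares of all genes were 0.135% without TP-3654 replicate 2, 0.0525% without TP-3654 replicate 1, 0.0316% with every gene of at least 1 count and 0.0228% with a block for the replicate number, with 0 members called in each.

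Small positive differences were the more frequent in the edgeR fit, and small negative ones in the authors' deposited table. In edgeR the log2 fold change (TP-3654 over vehicle) was above 0 for 30 of 42 members, against 52.1% of all tested genes, and its median was 0.22, against 0.01 over all tested genes. Of the 42 members in the authors' deposited table, 17 lay above 0 and 25 below, with a median of -0.04, against 47.2% above 0 and a median of -0.02 over its 13153 genes. Mx1 (-0.80), Oas1g (-0.42), Oas1a (-0.35), Isg15 (-0.14) and Ifit1 (-0.06) were among those below 0 in the authors' deposited table. Which libraries that table rests on is not given in the labels. The edgeR log2 fold change lay within 0.5 of 0 for 37 members and beyond 1 for 0 members. For 30 members the 95% interval of the edgeR fit lay wholly between -1 and 1, which leaves out a doubling and a halving. Without TP-3654 replicate 3 the median was 0.11, and without vehicle replicate 2 it was 0.07 with 24 members above 0. The plot of fold changes gives each member with its interval.

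**Figure D1:**
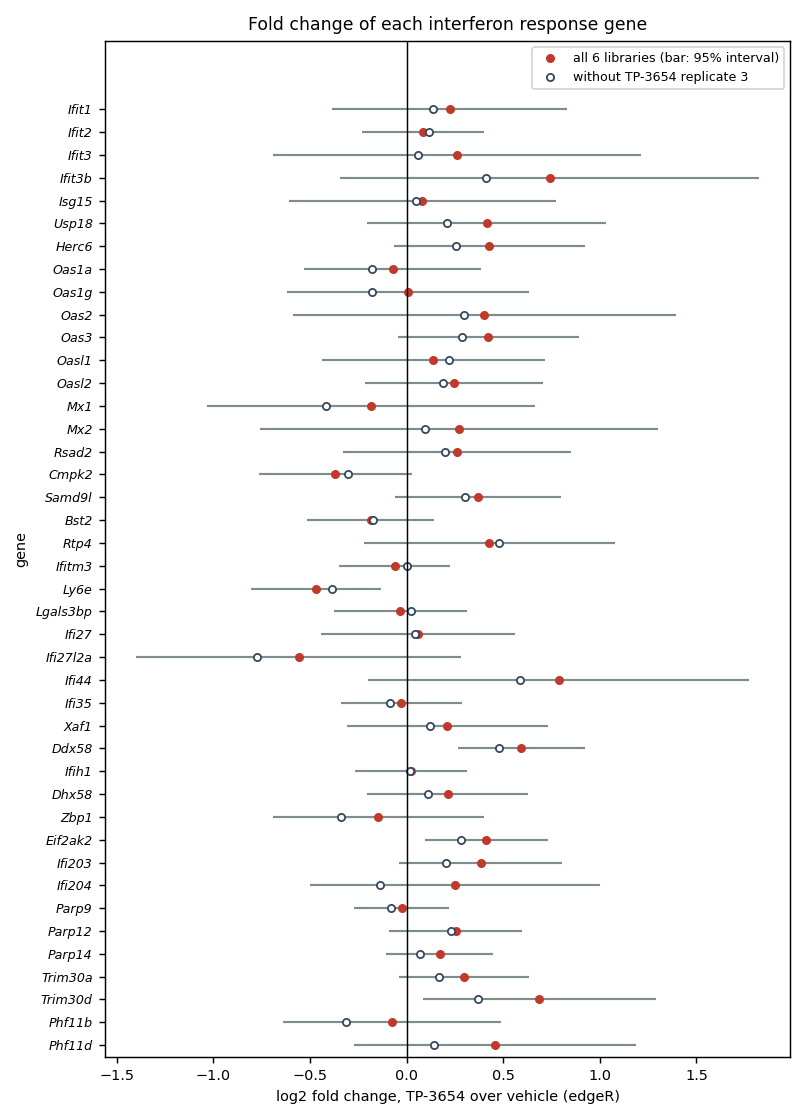
Log2 fold change of TP-3654 over vehicle (horizontal axis) for each of the 42 interferon response genes, from the edgeR fit on 6 libraries (filled points, with bars for the 95% interval) and on 5 libraries without TP-3654 replicate 3 (open points). 30 of the 42 filled points lie above 0, and the intervals of 38 genes include 0.

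Single libraries stood high or low across these genes in both groups. Relative to each gene's mean log2 CPM (reads scaled to a common library total with TMM factors) over the 6 libraries, the median member stood at 0.17, -0.15 and 0.27 in TP-3654 replicates 1 to 3, against 0.03, -0.33 and 0.08 in vehicle replicates 1 to 3. The groups overlapped, since TP-3654 replicate 2 lay below vehicle replicates 1 and 3. Over all tested genes the same medians lay between -0.01 and 0.02. Vehicle replicate 2 was the lowest of the 6 libraries for 23 of 42 members, or 54.8%, against 15.1% of all tested genes. TP-3654 replicate 3 was the highest library for 19 members, or 45.2%, against 28.9% of all tested genes, and TP-3654 replicate 1 for 11, or 26.2%, against 11.2%. TP-3654 replicate 2 and vehicle replicate 2 were highest for 0 members.

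**Figure D2:**
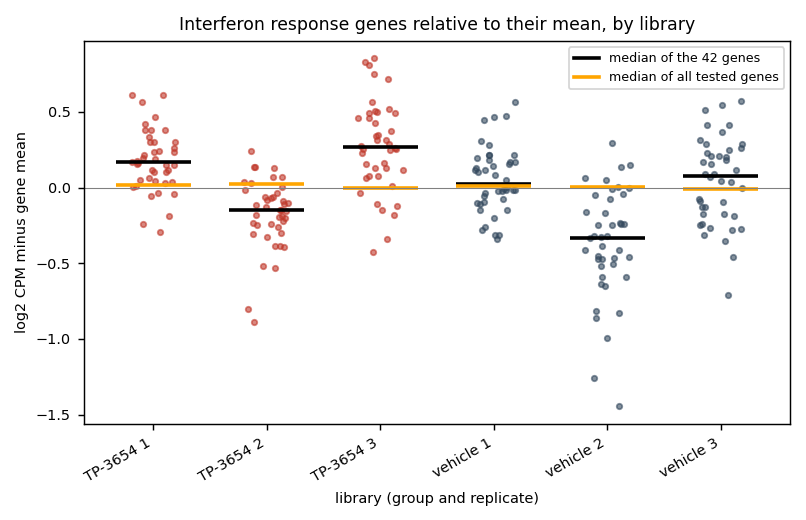
Log2 CPM minus the gene's mean over the 6 libraries (vertical axis) for the 42 interferon response genes in each library, with the median of these genes in black and that of all tested genes in orange. The black line is lowest in vehicle replicate 2, at -0.33, and highest in TP-3654 replicate 3, at 0.27.

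Within a group the members also varied more than the typical gene. The median SD of log2 CPM over 3 libraries was 0.29 among members in TP-3654 and 0.29 in vehicle, against 0.19 and 0.18 over all tested genes. Among genes with a mean of at least 1 CPM it was 0.28 and 0.28 for members, against 0.18 and 0.17. The genes were not further matched by level, and the part of the library shifts above in this spread was not tested. Levels of 1 member differed between the highest and the lowest library by 1.17-fold for Parp9 up to 4.90-fold for Ifi44. Ifi44, an induced protein that restrains the response, had 9.62, 6.00 and 11.0 CPM in TP-3654 libraries, against 7.64, 2.25 and 5.50 CPM in vehicle libraries. Its log2 fold change was 0.79 (SE 0.43, edgeR adjusted p = 0.374), and the groups overlapped because of vehicle replicate 1.

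TP-3654 replicate 3 stood apart from the other libraries. The chi-square per degree of freedom of counts between libraries was 110.5 to 174.5 in the 5 pairs with it and 18.5 to 62.3 in the 10 other pairs, so no library repeated another within sampling noise. Library totals ran from 20582057 to 25315596 counts, and 3 counts, the limit of detection used here, were worth 0.119 to 0.146 CPM. Of the LSK markers, Kit had 436, 492 and 581 CPM in TP-3654 libraries and 365, 377 and 375 CPM in vehicle libraries. Ly6a, which encodes Sca1 and is itself known to respond to interferon, had 60.5, 60.5 and 68.3 CPM with TP-3654, against 40.0, 46.7 and 69.2 CPM with vehicle.

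Markers of granulocyte-monocyte progenitors moved with the grouping. Their summed level over 10 of 10 markers was 2307 to 7555 CPM in TP-3654 libraries and 10325 to 13504 CPM in vehicle libraries. Mpo made up most of that sum, at 1403 to 4629 CPM with TP-3654 and 6623 to 8195 CPM with vehicle. All 10 markers were tested, and 0 were called in edgeR. At an unadjusted p under 0.05, 7 were lower with TP-3654 and 0 higher, against 6.84% and 10.2% of all tested genes. In bulk samples fewer cells of a type and less RNA per cell cannot be told apart. Plasmacytoid dendritic cells make much interferon alpha and carry Bst2. Of 8 markers of these cells, 6 had values, and they summed to 41.6 to 46.6 CPM in TP-3654 libraries and 32.8 to 37.6 CPM in vehicle libraries. Lair1 made up most of that sum, at 30.9 to 38.5 CPM with TP-3654 and 29.7 to 33.1 CPM with vehicle. The defining marker of these cells, Siglech, stood at 0.370, 1.35 and 2.91 CPM with TP-3654, against 0.433, 0.0901 and 0 CPM with vehicle. Its groups overlapped, and its counts were too low for the test. Pacsin1, also untested, had 0.370, 0.194 and 0.613 CPM with TP-3654, against 0.433, 1.04 and 0.321 CPM with vehicle. Of the 3 tested markers 2, Cox6a2 and Ly6d, were higher at an unadjusted p under 0.05, against 10.2% of all tested genes. Among TP-3654 libraries both were lowest in replicate 3, where Siglech was highest. Summed T and NK cell markers ran from 145 to 231 CPM with TP-3654, against 233 to 276 CPM with vehicle. Nkg7, a granule protein gene, made up nearly all of that sum, at 134 to 216 CPM with TP-3654 and 224 to 263 CPM with vehicle. The NK cell markers Klrb1c and Ncr1 had log2 fold changes of 0.46 and 0.72, and Gzmb one of -0.36, all without passing. Over the 5 tested T and NK cell markers the median was -0.11, with 2 above 0. The T cell markers Cd3e, Cd3d and Cd8a stood between 0 and 0.183 CPM in every library, and Cd4 between 0.360 and 0.749 CPM. Summed megakaryocyte markers ran from 430 to 508 CPM with TP-3654, against 379 to 401 CPM with vehicle. Mature neutrophil markers summed to 6.76 to 33.4 CPM with TP-3654 and to 12.7 to 145 CPM with vehicle. Monocyte and macrophage markers summed to 252 to 351 CPM with TP-3654 and 324 to 653 CPM with vehicle. Vehicle replicate 1 gave the top of both vehicle ranges. Vehicle replicates 2 and 3 had 18.9 and 12.7 CPM of neutrophil markers, and 375 and 324 CPM of monocyte and macrophage markers. The 6 tested neutrophil markers had a median log2 fold change of -1.81, with 0 above 0. The 9 tested monocyte and macrophage markers had one of -0.008, with 3 above 0. B cell markers summed to 29.8 to 31.8 CPM with TP-3654 and 29.8 to 45.6 CPM with vehicle. Erythroid markers summed to 417 to 978 CPM with TP-3654 and 577 to 1093 CPM with vehicle. The 7 tested erythroid markers had a median log2 fold change of -0.70, with 2 above 0, among them the abundant Hba-a1 (0.95). In TP-3654 replicate 3 Klf1 stood at 5.88 CPM, against 46.3 to 97.7 CPM in the other libraries. Car1 stood there at 36.6 CPM, against 218 to 426 CPM, and Ermap at 8.23 CPM, against 59.85 to 162 CPM, while Hba-a1 stood at 332 CPM. The part of these cell types in the interferon response values was not tested.

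Among the sensors of foreign nucleic acid, Ddx58 had the smallest p of all members. It encodes RIG-I, which detects viral RNA with a triphosphate end, and lies on chromosome 4 (40203777 to 40239825, GRCm38). Its level was 56.3, 59.4 and 70.9 CPM in TP-3654 libraries, against 46.9, 35.1 and 41.6 CPM in vehicle libraries. Each TP-3654 library lay above each vehicle library. The log2 fold change was 0.59 (SE 0.15), or 1.51-fold, and did not pass in edgeR (adjusted p = 0.112). Without TP-3654 replicate 3 it was 0.48 (adjusted p = 0.176). DESeq2 called it (adjusted p = 0.0211).

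Eif2ak2, the kinase PKR that stops translation when it binds double-stranded RNA, was also higher in each TP-3654 library. It had 77.1, 62.4 and 87.9 CPM with TP-3654, against 53.7, 61.8 and 55.3 CPM with vehicle. The gap between TP-3654 replicate 2 and vehicle replicate 2 was under 1 CPM. The log2 fold change was 0.41 (SE 0.14, edgeR adjusted p = 0.204), and 0.28 without TP-3654 replicate 3. Ifi203, a member of the IFI200 family of DNA-binding proteins on chromosome 1, had 165, 152 and 217 CPM with TP-3654 and 171, 118 and 121 CPM with vehicle. Vehicle replicate 1 overlapped the TP-3654 libraries there, and the log2 fold change was 0.38 (SE 0.19, edgeR adjusted p = 0.325). Ifih1, which encodes the long double-stranded RNA sensor MDA5, had a log2 fold change of 0.02, Dhx58, which encodes the helicase LGP2, one of 0.21, Zbp1, a sensor of left-handed nucleic acid, one of -0.15 and Ifi204 one of 0.25. For these the edgeR adjusted p was 0.554 to 0.937 and the groups overlapped. The related sensors encoded by Ddx58 and Ifih1 thus had different log2 fold changes, but a difference between them was not tested.

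**Figure D3:**
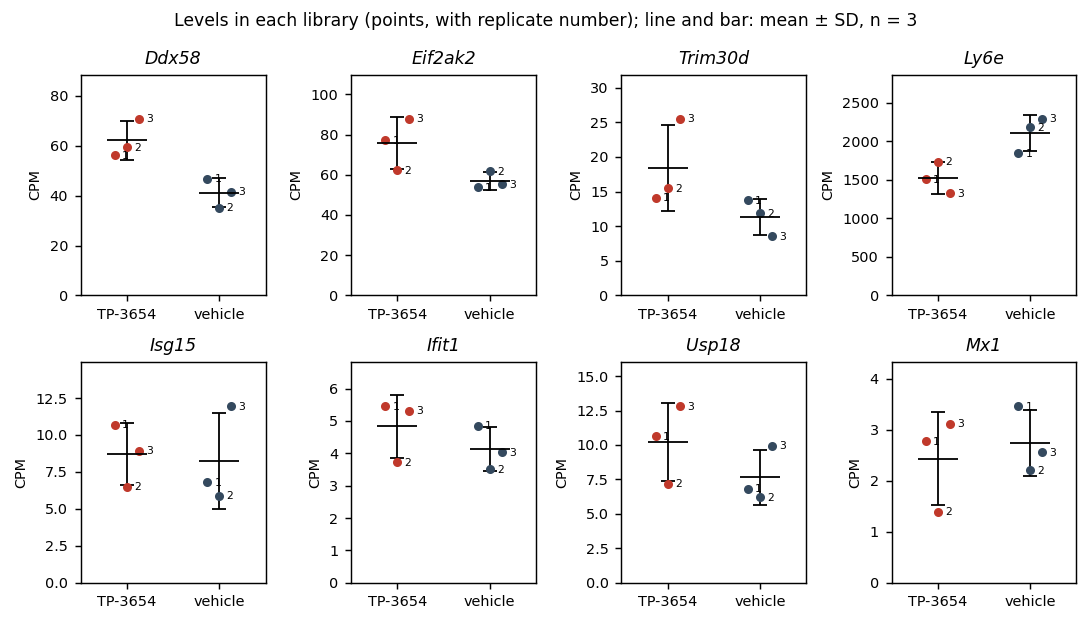
CPM (linear axis from 0) of 8 interferon response genes in the TP-3654 and vehicle libraries, as points labelled with the replicate number, with the mean and SD of 3 libraries. The groups do not overlap for Ddx58, Eif2ak2, Trim30d and Ly6e, and they overlap for Isg15, Ifit1, Usp18 and Mx1.

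Among the genes of the membrane and surface, the one with the largest shift ran opposite to most members. Ly6e, a small lipid-anchored protein of the Sca1 family that blocks coronavirus entry, had 1506, 1731 and 1322 CPM in TP-3654 libraries, against 1840.2, 2178 and 2291 CPM in vehicle libraries. Each TP-3654 library lay below each vehicle library. Its log2 fold change was -0.47 (SE 0.15, edgeR adjusted p = 0.180), or 1.38-fold lower with TP-3654, and -0.39 (adjusted p = 0.262) without TP-3654 replicate 3. DESeq2 called it lower (adjusted p = 0.0300). Ly6e was also the most abundant member per length, at 402 CPM per kb of exons in TP-3654 and 556 CPM per kb in vehicle, with Ifitm3 next at 336 and 350 CPM per kb and then Lgals3bp at 114 and 116 CPM per kb.

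Ifitm3 encodes a membrane protein that blocks fusion of viruses in endosomes. It had 236, 243 and 204 CPM with TP-3654, against 217, 225 and 271 CPM with vehicle, a log2 fold change of -0.06 (95% interval -0.35 to 0.23). Lgals3bp, a secreted glycoprotein that binds galectin 3, had 352, 327 and 294 CPM with TP-3654 and 262, 358 and 375 CPM with vehicle, with a log2 fold change of -0.03 (95% interval -0.38 to 0.31). The groups overlapped for both. Bst2, the tetherin that holds budding virus at the cell surface, had 69.7, 59.4 and 62.0 CPM with TP-3654 and 58.6, 74.8 and 83.9 CPM with vehicle (log2 fold change -0.18, SE 0.15, edgeR adjusted p = 0.515). Rtp4, a chaperone of receptors, had a log2 fold change of 0.43 (SE 0.29), the only one above 0 among these 5 surface and secreted products.

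The TRIM30 genes lie side by side on chromosome 7 and encode proteins with a RING domain, of which TRIM30a is known to dampen inflammatory signals. Trim30d (104470014 to 104507853) had 14.1, 15.4 and 25.5 CPM in TP-3654 libraries, against 13.7, 11.8 and 8.57 CPM in vehicle libraries. The groups did not overlap, by 0.4 CPM at the closest pair, and TP-3654 replicate 3 stood highest. Its log2 fold change was 0.69 (SE 0.27, edgeR adjusted p = 0.252) and 0.37 (adjusted p = 0.538) without that library. Trim30a (104409025 to 104465193) had 57.4, 65.3 and 77.5 CPM with TP-3654 and 63.2, 50.3 and 49.3 CPM with vehicle, with groups that overlapped (log2 fold change 0.30, SE 0.15). Trim30b, their relative outside the 42, had a log2 fold change of 0.71 (SE 0.25, edgeR adjusted p = 0.209). Trim30a and Trim30d each shared 11.9% of their 31-base words with other genes. Of the PHF11 genes on chromosome 14, Phf11d had a log2 fold change of 0.46 and Phf11b one of -0.08, and Phf11b shared 62.9% of its words with other genes.

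The OAS enzymes make a short RNA-like messenger that switches on RNase L, and their genes form clusters on chromosome 5. Oas3 had 26.7, 17.5 and 28.3 CPM with TP-3654, against 20.3, 14.95 and 18.8 CPM with vehicle (log2 fold change 0.42, SE 0.21, edgeR adjusted p = 0.329). Oas1a had 37.8, 29.3 and 40.3 CPM with TP-3654 and 35.8, 28.9 and 48.2 CPM with vehicle, a log2 fold change of -0.07 (95% interval -0.53 to 0.38). In both genes replicate 2 was the lowest library within its group, and the groups overlapped. Over the 6 OAS genes the log2 fold change ran from -0.07 to 0.42 with a median of 0.19. Oas1a and Oas1g shared 68.8% and 55.1% of their words with other genes, mostly with each other, so reads between them are uncertain.

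The IFIT proteins bind viral RNA that lacks the methyl marks of host caps, and their 4 genes lie together on chromosome 19. Ifit1 had 5.46, 3.72 and 5.32 CPM with TP-3654, against 4.85, 3.51 and 4.03 CPM with vehicle, a log2 fold change of 0.22 (SE 0.27, edgeR adjusted p = 0.674). The groups overlapped, with replicate 2 lowest in each. The IFIT median was 0.24, with Ifit3b highest at 0.74 (SE 0.48). Ifit3b was also the lowest member by level, at 0.724 ± 0.268 CPM with TP-3654 and 0.424 ± 0.147 CPM with vehicle (SD, n = 3), and it shared 55.3% of its words with other genes. Ifit3, its near copy with 61.8% shared, had a log2 fold change of 0.26 and Ifit2 one of 0.08.

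ISG15 is a ubiquitin-like tag, HERC6 attaches it in the mouse, and USP18 removes it and blocks the receptor chain IFNAR2. Isg15 had 10.7, 6.502 and 8.94 CPM with TP-3654, against 6.82, 5.90 and 11.96 CPM with vehicle, a log2 fold change of 0.08 (95% interval -0.61 to 0.77). Usp18 had 10.6, 7.20 and 12.8 CPM with TP-3654 and 6.82, 6.21 and 9.94 CPM with vehicle (log2 fold change 0.41, SE 0.27, edgeR adjusted p = 0.449). Herc6 had 21.1, 19.8 and 27.9 CPM with TP-3654 and 21.8, 12.9 and 16.3 CPM with vehicle (log2 fold change 0.43, SE 0.22, edgeR adjusted p = 0.344). All 3 were above 0 and all 3 overlapped between the groups. Without TP-3654 replicate 3 the median of the 3 was 0.21, against 0.41 with it.

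Mx1 is the gene whose promoter drives the recombinase in every mouse here, and in most laboratory strains, C57BL/6 among them, its own allele is defective. It had 2.78, 1.39 and 3.12 CPM with TP-3654, against 3.47, 2.21 and 2.57 CPM with vehicle, so it was low in both groups. The log2 fold change was -0.18 (95% interval -1.03 to 0.66), and its sign changed without vehicle replicate 1 or TP-3654 replicate 2. Cmpk2, a mitochondrial nucleotide kinase, had 26.4, 18.1 and 18.8 CPM with TP-3654 and 29.4, 24.8 and 27.5 CPM with vehicle (log2 fold change -0.37, SE 0.18, edgeR adjusted p = 0.317). Rsad2, its neighbour on chromosome 12, encodes viperin, which makes a chain-terminating nucleotide from the product of CMPK2, and its log2 fold change was 0.26 (SE 0.26). These neighbours differed in sign without passing. Samd9l, a gene whose mutation in humans causes marrow failure, had 60.5, 46.0 and 59.7 CPM with TP-3654 and 55.1, 34.7 and 38.7 CPM with vehicle (log2 fold change 0.37, SE 0.19, edgeR adjusted p = 0.347).

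Of the ADP-ribosyl transferases, Parp12 had 36.0, 33.6 and 35.8 CPM with TP-3654, against 25.7, 27.0 and 35.6 CPM with vehicle (log2 fold change 0.25, SE 0.15, edgeR adjusted p = 0.410). Vehicle replicate 3 lay within the TP-3654 range. Parp14 had a log2 fold change of 0.17 and Parp9 one of -0.03. Ifi27l2a, a small mitochondrial protein gene, had the lowest fold change of all members, at -0.56 (SE 0.37, edgeR adjusted p = 0.453). Its span overlaps that of Ifi27 on chromosome 12, whose log2 fold change was 0.06. Ifi27 shared 0% of its 31-base words with other genes, and Ifi27l2a shared 6%, all with Ifi27l2b. Their transcript sequences thus differ, but how reads in the common span were counted is not given. The remaining members ran within these values: Oas2 at 0.40, Mx2 at 0.27, Oasl2 at 0.25, Xaf1 at 0.21, Oasl1 at 0.14, Oas1g at 0.01 and Ifi35 at -0.03 in log2 fold change, all with overlapping groups.

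**Figure D4:**
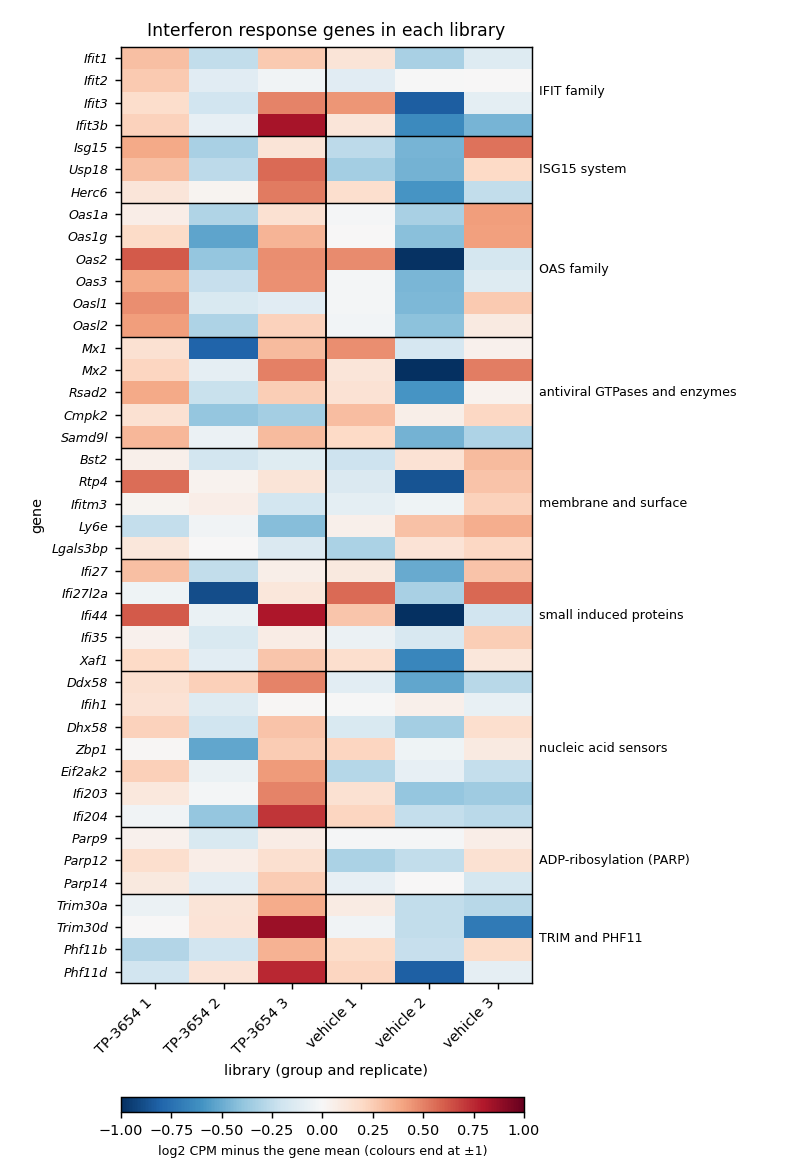
Each of the 42 interferon response genes (rows, by role) in each of the 6 libraries (columns, TP-3654 left of vehicle), coloured by log2 CPM minus the gene's mean over the libraries. Vehicle replicate 2 is the lowest library for 23 genes and TP-3654 replicate 3 the highest for 19.

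The 17 members with the ISRE core in their promoter had a median log2 fold change of 0.26, with 13 above 0, and the 12 members without it had a median of 0.23, with 9 above 0. At an unadjusted p under 0.05 in edgeR there were 3 of the 17 and 0 of the 12, against 17.1% of all tested genes. The 3 are Ddx58, Eif2ak2 and Trim30d. The 13 members not matched to a promoter had a median of 0.17, with 8 above 0 and 1 at such a p, Ly6e, which was lower. A difference between these sets was not tested.

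The genes upstream of the response gave no called change in edgeR either, with 0 called in any of the 6 pathway lists. DESeq2 called 3 genes in them, all lower with TP-3654. Of 21 interferon ligand genes, 2 had a row among the deposited counts and 0 were tested, so that list could give no call. The reads of the others are not known. Of the 2, Ifnz, an interferon of the mouse also called limitin, was the only one with at least 10 reads in all. It stood at 0.416, 0 and 0.153 CPM with TP-3654, against 0.236, 0.315 and 0.367 CPM with vehicle, levels near the limit of detection. The receptor genes of interferon alpha and beta were well expressed. Ifnar1 had 98.0, 92.1 and 87.2 CPM with TP-3654 and 99.4, 102 and 91.7 CPM with vehicle (log2 fold change -0.08, SE 0.10), and Ifnar2 had 99.4, 109 and 102 CPM with TP-3654 and 116, 111 and 110.3 CPM with vehicle (-0.12, SE 0.10). Each TP-3654 library lay below each vehicle library for Ifnar2, by under 2 CPM at the closest pair, and the groups overlapped for Ifnar1. The transducer genes Stat2 (log2 fold change -0.02) and Irf9 (0.08) overlapped between the groups. The genes of the receptor-bound kinases ran in opposite directions. Jak1, named after its values were seen, had 296, 322 and 362 CPM with TP-3654, against 266, 254 and 229 CPM with vehicle (log2 fold change 0.39, SE 0.12, edgeR adjusted p = 0.174), with each TP-3654 library above each vehicle library. Tyk2, likewise, had 83.6, 89.9 and 90.5 CPM with TP-3654 and 110.9, 93.3 and 104 CPM with vehicle (log2 fold change -0.22, SE 0.11, edgeR adjusted p = 0.323), with each TP-3654 library below each vehicle library. Neither passed, and without TP-3654 replicate 3 the log2 fold changes were 0.30 for Jak1 and -0.25 for Tyk2.

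The receptor genes of interferon gamma, which signals through JAK1 and JAK2, differed more. Ifngr1 had 111, 150 and 88.0 CPM in TP-3654 libraries, against 219, 200.3 and 199.7 CPM in vehicle libraries (log2 fold change -0.83, SE 0.18, edgeR adjusted p = 0.0875). Ifngr2 had 33.8, 36.9 and 30.2 CPM with TP-3654 and 54.0, 57.2 and 51.0 CPM with vehicle (log2 fold change -0.68, SE 0.12, edgeR adjusted p = 0.0792). Each TP-3654 library lay below each vehicle library for both, edgeR passed neither with 6 libraries, and DESeq2 called both. Without TP-3654 replicate 3 the values were -0.67 and -0.62 (edgeR adjusted p = 0.0814 for Ifngr1 and 0.0745 for Ifngr2). Both receptor genes were lower where the summed granulocyte-monocyte progenitor markers were lower, and the part of those cells was not tested.

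In the list of 12 receptors and transducers, 3 were higher and 2 lower at an unadjusted p under 0.05. Among all tested genes 10.2% were higher and 6.84% lower by that measure, 17.1% in all, and the counts in the lists that follow are to be read against those shares. Besides the receptor genes, the repressor gene Irf2 came next by p and stood at 0.36 in log2 fold change (SE 0.10, edgeR adjusted p = 0.154). Of 15 tested sensors and adaptors, 1 was higher and 2 lower at an unadjusted p under 0.05. Unc93b1, the chaperone of endosomal Toll-like receptors, had 128, 143 and 135 CPM with TP-3654 and 243, 189 and 179 CPM with vehicle (log2 fold change -0.59, SE 0.13, edgeR adjusted p = 0.0936), and DESeq2 called it. Ikbke, a kinase that activates IRF3, had a log2 fold change of -0.42 and Tlr7, a receptor for single-stranded RNA, one of 0.73. Irf7, the factor that amplifies interferon alpha production, had one of 0.05 with overlapping groups.

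Of 34 other interferon-stimulated genes, 4 were higher and 0 lower at an unadjusted p under 0.05, and their median log2 fold change was 0.03. Ddx60, a helicase linked to RIG-I signalling, had 8.33, 7.04 and 14.97 CPM with TP-3654, against 5.16, 5.49 and 5.36 CPM with vehicle (log2 fold change 0.92, SE 0.29, edgeR adjusted p = 0.183). Without TP-3654 replicate 3 its log2 fold change was 0.51. Epsti1 had one of 0.48 and Trim34a one of 0.45. Of 11 tested feedback genes, the SUMO ligase gene Pias4 (-0.37) and the RNA-editing enzyme gene Adar (0.29) had an unadjusted p under 0.05. Of 16 tested relatives of the members 1 did, Trim30b, which was higher, and their median was 0.14.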

How the data were processed

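RNA from 6 LSK libraries was poly(A)-selected and prepared with an NEBNext Ultra II kit after magnetic lineage depletion and sorting, per the labels' protocols. Unnormalized read counts by Entrez gene were deposited by the authors. A second deposited table holds their comparison, per the file headers: a signal (mean normalized count), a log2 fold change, scores (its standard error and a Wald statistic) and deposited p-values, raw and adjusted. The submitters' processing notes name HISAT2 2.1.0, SAMtools 1.9.0, DESeq2, mm10 and GRCm38. The sources used here do not give the counter, annotation, strand setting or the libraries behind the deposited comparison. Overlapping and near-identical genes are therefore uncertain.

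Symbols came from the deposited table, else from RefSeq (GRCm38.p6), which gave 15839 of 15845 genes a symbol. edgeR 4.0.16 (R 4.3.3) was run on the counts with TMM factors, filterByExpr and a robust quasi-likelihood fit, and genes were called at a Benjamini-Hochberg adjusted p under 0.05. Each SE is the size of the log2 fold change divided by the root of F. Log2 CPM used a prior count of 2. Alternatives were DESeq2 1.42.0, limma-voom (limma 3.58.1), other scalings and filters, a replicate block and leaving out each library. Counts for TP-3654 against vehicle (13017 genes) were simulated from the real means and the fitted spread of each gene, with changed genes taken from those above 1 CPM. There 68 of 100 genes changed 2-fold and 90 of 100 changed 4-fold were recovered, and 12 of 12817 unchanged genes were called. Genes were drawn independently, so no simulated library stood apart as TP-3654 replicate 3 did, and these shares may not hold for the real libraries. Exon lengths (for all members but Mx1) and shared 31-base words came from GENCODE M21 transcripts. The members and lists were chosen with earlier results of these data known. Values in every library are given for the 12 members with the smallest p, the 4 most abundant and 8 chosen by symbol, and up to 3 genes per pathway list with the smallest p were named beside fixed ones. The values of 1 gene that this rule names are not reported here.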

Additional observations from a re-analysis of the deposited data

How the results depend on the processing

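Counts of called genes over all genes were 0 with all 6 libraries in edgeR, 5 with every gene of at least 1 count, 3 with a replicate block, 647 in DESeq2 and 0 to 31 without 1 library, with 31, 18 and 7 when the library left out was TP-3654 replicate 3, 2 or 1. Called members were 2 in DESeq2 and 0 in every other alternative run, and called pathway genes were 3 in DESeq2, Ifngr1, Ifngr2 and Unc93b1, and 0 to 1 without 1 library, the 1 being Ifngr1 without TP-3654 replicate 2 (log2 fold change -1.05). The median log2 fold change of the members ran from 0.07 without vehicle replicate 2 to 0.31 without TP-3654 replicate 2. Members with an unadjusted p under 0.05 were 8 under the replicate block (14.6%), 9 without vehicle replicate 1 (13.9%), 3 without vehicle replicate 2 (12.9%), 3 without vehicle replicate 3 (13.1%), 6 (16%) or 8 (17.1%) with TP-3654 replicate 1 or 2 left out, and 3 (12.5%) with TP-3654 replicate 3 left out. The shares are those of all genes. Deviations of equally numbered libraries correlated at -0.01, -0.01 and 0.03 over 13149 genes. These values show no shared pattern by number over all genes, but they cannot decide whether the numbers pair the samples. Among the members, replicate 2 had the lowest median deviation in each group, at -0.15 in TP-3654 and -0.33 in vehicle. The block changed no call of a member. Of 630 member values over 15 alternatives 37 changed sign, in 18 members whose log2 fold change lay within 0.27 of 0. Oas1g, at 0.01, was -0.00274 with DESeq2 size factors, -0.00243 in DESeq2 and -0.024 in limma-voom. Without 1 library the values with a change of sign ran as follows in log2 fold change: Ifit2 -0.038 to 0.16, Ifit3 -0.032 to 0.63, Isg15 -0.12 to 0.45, Oas1a -0.25 to 0.15, Oas1g -0.19 to 0.24, Oasl1 -0.092 to 0.32, Mx1 -0.42 to 0.098, Mx2 -0.12 to 0.66, Ifi27 -0.15 to 0.23, Ifi35 -0.13 to 0.099, Xaf1 -0.023 to 0.35, Ifih1 -0.047 to 0.089, Zbp1 -0.34 to 0.045, Parp9 -0.080 to 0.042, Ifitm3 -0.12 to 0.045, Lgals3bp -0.18 to 0.066, Phf11b -0.31 to 0.044 and Ifi204 -0.14 to 0.47. The causes were not tested. Members near 1 CPM, such as Ifit3b, are limited by depth.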

Other observations

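The authors' deposited table holds all 42 interferon response genes and calls 1 of them, Ly6e, lower (deposited log2 fold change -0.45, deposited adjusted p = 0.0203), against 5.32% of its genes with a deposited adjusted p. In the authors' deposited table Ddx58 stood at 0.43 (deposited adjusted p = 0.0535) and Ifi27l2a at -0.91 (deposited adjusted p = 0.142). The log2 fold changes of the authors' deposited table differed from those of the edgeR fit on 6 libraries by a median of 0.08, and from those of the fit without TP-3654 replicate 3 by a median of 0.04.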
